A study of Coilia nasus with 12 samples.

Results

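The clock genes described here are the unigenes (assembled transcript groups) of the Coilia nasus stomach table that carry the name PER1, PER2, PER3, ARNTL, ARNTL2 or CLOCK, in any case of letters. The rule found 16 unigenes among 63567 in all, of which 18158 have a name. They comprise 9 named for the period repressors and 7 named for the activators that drive them. The genes were proposed with their feeding difference already known, so every difference between the feeding groups for these 16 is given below as a description and was not tested. RNA came from the stomachs of single fish of this anadromous anchovy: 6 fish had the condition food intake, and the other 6, which the protocol calls controls, had no food intake. The labels give gastric mucosa as the source. No diet, age, strain or hour of sampling is given in the sources used here. Levels are TPM (a length-corrected share of the library), and differences are in mean log2(TPM + 1), food intake minus no food intake.

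The circadian clock of vertebrates is a transcriptional loop that runs in most tissues. CLOCK, or its relative NPAS2, pairs with ARNTL (also called BMAL1) or ARNTL2 and switches on the period and cryptochrome genes, whose proteins return to the nucleus and repress the same pair. A second arm runs through NR1D1 and NR1D2, which repress Arntl transcription, and the ROR receptors, which raise it. In mammals, meal times shift the clocks of digestive organs, and in zebrafish per2 is induced by light.

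The gene names and the best protein matches in the table did not always give the same gene, and 6 of the 16 differed. By best match, 5 unigenes were PER1, 3 were PER3 and 1 was PER2. The others matched ARNTL (1 unigene), ARNTL2 (2), CLOCK (3) and NPAS2 (1). A pair of unigenes named PER2 and 1 named Per2 had PER1 or PER3 as best match, which left TRINITY_DN33379_c1_g1, 5678 bases long, as the only unigene with a PER2 name and a PER2 match. Lengths ran from 224 to 5678 bases, and 5 of the 16 were under 500 bases, including both ARNTL2-matched unigenes (224 and 232 bases). Unigenes of the same assembly component, such as TRINITY_DN33323_c1_g1 and TRINITY_DN33323_c1_g6, or TRINITY_DN33379_c1_g1 and TRINITY_DN33379_c1_g2, may share reads, and how the authors' counting divided such reads is not given in the sources used here.

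Library-wide features touch these values. Column totals were 984119 to 992092 TPM, and the depth behind them is unknown. The rRNA-like unigenes took 64.2% of food intake 6, against 4.34% to 16.4% of the other food intake libraries and 6.12% to 26.9% of the no food intake libraries, so values are also given after removing them and rescaling. Mitochondrial unigenes whose best match was a chicken protein were above 0 in 7 libraries, from fish 1, 5 and 6 of the food intake group and fish 1, 2, 4 and 6 of the other, and at 0 in the remaining 5. Stomach markers were abundant: the summed pepsinogen, acid chitinase and proton pump list stood at 108904 to 372235 TPM with food intake and 58293 to 367856 TPM with no food intake, with 5 of 5 symbols found and 5 of 6 food intake libraries above the no food intake median. Some marker lists had a higher median with food intake, with overlapping ranges, and were not tested for feeding. Summed pancreas markers (5 of 7 symbols found, AMY2A and GCG not matched) were 12.7 to 185.6 TPM with food intake (median 21.1) and 5.14 to 29.4 TPM with no food intake (median 9.33), with 6 of 6 food intake libraries above that median. Summed mucous cell markers (7 of 8 symbols found, MUC2 not matched) were 1290 to 13482 TPM with food intake (median 4641) and 1175 to 4634 TPM with no food intake (median 2933), with 5 of 6 above. No matched symbol of these lists was at 0 throughout, and their part in the clock values was not tested. Within groups, r with the log2 repressor to activator ratio given below was 0.33 for mucous cell, 0.30 for stomach and 0.14 for pancreas markers. It was -0.36 for blood cell markers (83.8 to 628.5 TPM with food intake, 85.6 to 744.4 TPM with no food intake). The smooth muscle, nerve and leucocyte lists lay between -0.07 and 0.005. These r values come without a test. Summed smooth muscle markers (6 of 6 symbols found) were 2834 to 6713 TPM with food intake and 1528 to 26489 TPM with no food intake. In whole-tissue RNA, fewer cells of a type and less RNA per cell cannot be told apart.

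Of the 9 PER-named unigenes, 8 averaged lower with food intake and 1, the PER2 match, averaged higher. The 8 are those matching PER1 and PER3, core repressors of the loop, with differences of -1.24 to -0.14 and a median of -0.72. Grouping them by best match sets the PER2 match apart, so 8 of 8 is a description. Some of the 8 may be pieces of 1 gene and are not separate observations. Of the 40142 tested unigenes, 54.0% had a lower and 46.0% a higher mean with food intake, and their median difference was -0.04. Summed, the 8 unigenes had 17.6 ± 14.1 TPM with food intake and 31.0 ± 11.5 TPM with no food intake (SD, n = 6 each). In 7 of the 8, at least 5 of 6 food intake libraries lay below the no food intake median. Food intake 4 stood apart from its group: it was the highest food intake library in 8 of 8 and the only one above that median in 6 of those 7.

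**Figure D1:**
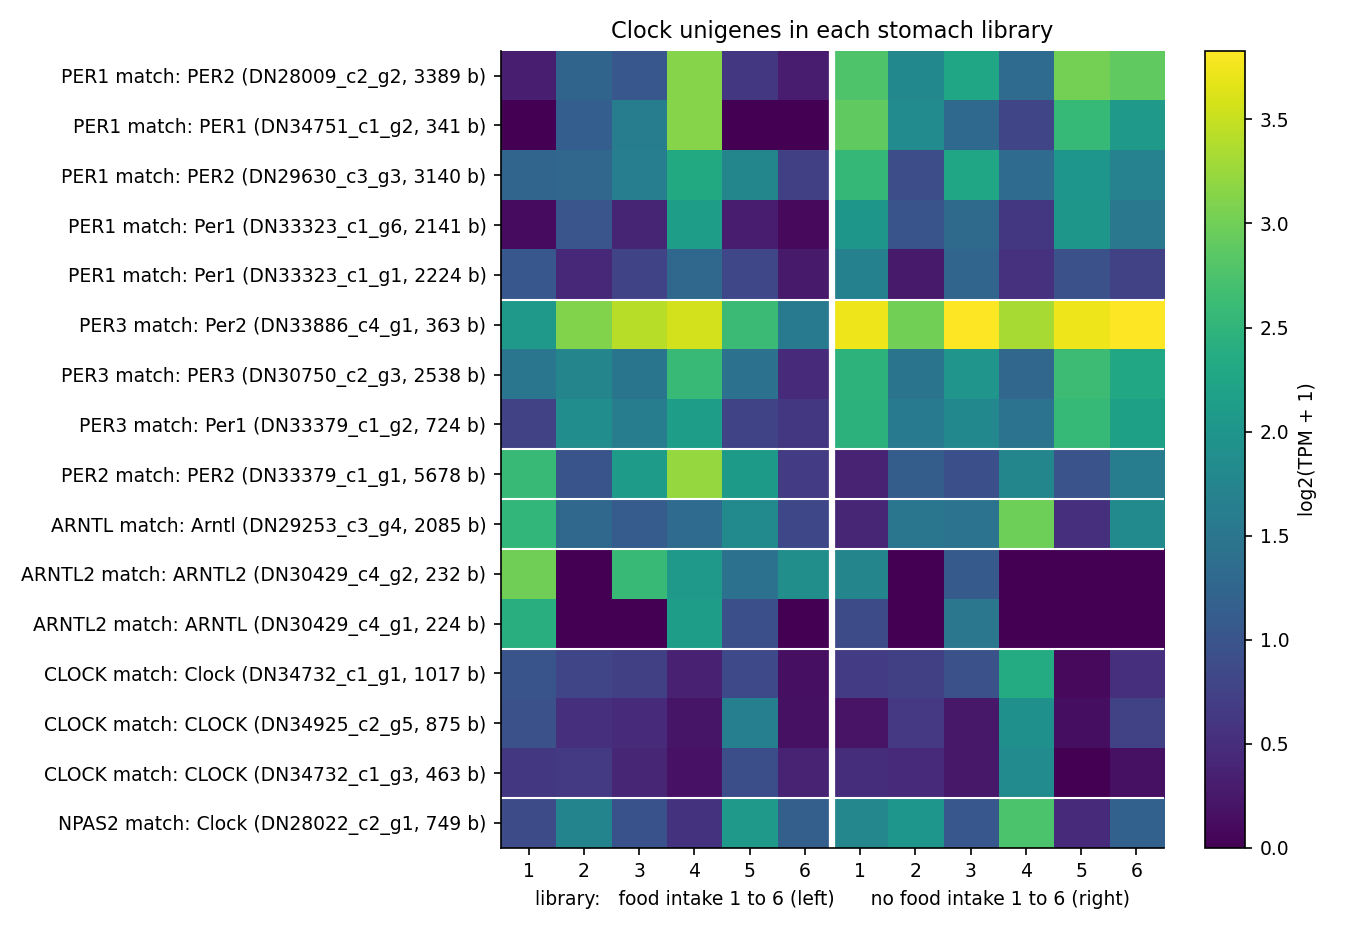
Level of each of the 16 clock unigenes, as log2(TPM + 1), in the 6 food intake libraries on the left and the 6 no food intake libraries on the right; rows are grouped by best match, with the deposited name, unigene and length in bases. Most PER1 and PER3 rows are high together in food intake 4 and in no food intake 1, 5 and 6, while the CLOCK and NPAS2 rows are highest in no food intake 4. TRINITY_DN33323_c1_g1 (0.67 TPM) and TRINITY_DN29630_c3_g3 (2.23 TPM) are not high in no food intake 6.

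Among the PER1 matches, TRINITY_DN28009_c2_g2 (named PER2, 3389 bases) ran from 0.22 to 7.79 TPM with food intake (median 0.79) and from 1.52 to 7.13 TPM with no food intake (median 4.81). Its highest value of all lay in food intake 4, and the other 5 food intake libraries, at 1.35 TPM or less, lay below every no food intake library. It averaged 1.87 ± 2.94 TPM with food intake and 4.52 ± 2.28 TPM with no food intake, a difference of -1.24 (SE 0.45). TRINITY_DN34751_c1_g2 (named PER1, 341 bases) ran from 0 to 7.81 TPM with food intake (median 0.61) and from 0.74 to 6.43 TPM with no food intake (median 2.89), and was listed at 0 in food intake 1, 5 and 6. Its difference was -0.93 (SE 0.51), with food intake 2 and 3 inside the no food intake range and food intake 4 above it.

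TRINITY_DN33323_c1_g6 (named Per1, 2141 bases) averaged 0.855 ± 1.31 TPM with food intake and 1.84 ± 1.06 TPM with no food intake, a difference of -0.74 (SE 0.39). The remaining PER1 matches differed less between the groups. TRINITY_DN29630_c3_g3 (named PER2, 3140 bases) averaged 1.99 ± 1.18 TPM with food intake and 2.72 ± 1.47 TPM with no food intake, and TRINITY_DN33323_c1_g1 (named Per1, 2224 bases) averaged 0.755 ± 0.453 TPM with food intake and 0.980 ± 0.729 TPM with no food intake. Among the PER1 matches the size of the difference varied with the unigene, from -1.24 to -0.14, while its sign did not.

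The PER3 matches were led by TRINITY_DN33886_c4_g1 (named Per2, 363 bases), which at a mean of 8.79 TPM was the most abundant of the 16. It ran from 1.96 to 10.9 TPM with food intake (median 6.35) and from 7.04 to 13.2 TPM with no food intake (median 12.3). All 6 food intake libraries lay below the no food intake median, although food intake 2, 3 and 4 fell within the no food intake range. The difference was -0.86 (SE 0.35). TRINITY_DN33379_c1_g2 (named Per1, 724 bases) averaged 1.68 ± 1.21 TPM with food intake and 3.19 ± 1.35 TPM with no food intake, a difference of -0.71 (SE 0.33). TRINITY_DN30750_c2_g3, the one unigene named PER3 (2538 bases), averaged 2.18 ± 1.55 TPM with food intake and 3.30 ± 1.52 TPM with no food intake, a difference of -0.48 (SE 0.35).

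Food intake 6, the library with the large rRNA-like share, was the lowest food intake library, ties included, in 8 of 8 PER1 and PER3 matches. After rescaling, 8 of 8 had a lower mean with food intake, with a median of -0.72 (44.3% of all unigenes were lower on that scale). Without food intake 6 the median was -0.60, beside 0.06 over all tested unigenes. Rescaled, the sum over the 8 was 20.7 ± 13.5 TPM with food intake and 37.0 ± 14.7 TPM with no food intake. In the 7 libraries with chicken-matched unigenes 8 of 8 were lower (median -1.16, beside -0.19 over all tested unigenes). Within the other 5 libraries 7 of 8 were lower (median -0.38, beside 0.18 over all), and TRINITY_DN34751_c1_g2 stood at 0.03. Both are parts of the contrast from which the genes were proposed, so the counts are a description. TRINITY_DN33323_c1_g1 turned to 0.02 without no food intake 1.

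PER2 itself ran the other way. TRINITY_DN33379_c1_g1, the PER2-matched repressor gene, ran from 0.59 to 8.37 TPM with food intake (median 3.27) and from 0.29 to 2.38 TPM with no food intake (median 1.07). Food intake 1, 3, 4 and 5, at 3.25 TPM or more, lay above every no food intake library, and food intake 2 and 6, at 0.99 and 0.59 TPM, lay below the no food intake median. It averaged 3.59 ± 2.86 TPM with food intake and 1.30 ± 0.778 TPM with no food intake, a difference of 0.82 (SE 0.40). The difference was 0.92 after rescaling, 0.57 within the libraries with chicken-matched unigenes and 1.15 within the others. Over all tested unigenes the medians there were 0.06, -0.19 and 0.18.

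Of the activators, ARNTL2, a partner of CLOCK, was the member with the largest positive difference. TRINITY_DN30429_c4_g2 (named ARNTL2, 232 bases) had 6.98, 5.05, 3.16, 2.71 and 1.68 TPM in food intake 1, 3, 4, 6 and 5 and was listed at 0 in food intake 2. It had 2.35 and 1.13 TPM in no food intake 1 and 3 and was listed at 0 in no food intake 2, 4, 5 and 6. The groups overlapped between 1.13 and 2.35 TPM and at 0. The difference was 1.35 (SE 0.47), and 2.93 with a pseudocount of 0.1, since 5 of the 12 libraries are at 0. A listed 0 in a 232-base unigene of unknown depth does not show that the transcript was lacking.

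The neighbouring TRINITY_DN30429_c4_g1 (named ARNTL, matching ARNTL2, 224 bases) was above 0 in 5 libraries: food intake 1, 4 and 5 at 4.34, 3.42 and 0.91 TPM, and no food intake 3 and 1 at 1.87 and 0.85 TPM. It fell short of the limit for testing, 1 TPM in at least 6 libraries. Arntl proper, TRINITY_DN29253_c3_g4 (2085 bases), showed hardly any group difference: 0.77 to 4.79 TPM with food intake (median 1.49) against 0.33 to 6.88 TPM with no food intake (median 1.79), a difference of 0.04 (SE 0.41). Its sign turned when food intake 1 or 5, or no food intake 1 or 5, was left out.

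CLOCK is a bHLH-PAS transcription factor that also has acetyltransferase activity in mammals. Its named unigenes were near the floor of the table. These 3 CLOCK matches had means of 0.460 to 0.695 TPM with food intake and 0.618 to 1.14 TPM with no food intake, and none reached 1 TPM in 6 libraries. A CLOCK match without a deposited name, TRINITY_DN32692_c0_g1 (1247 bases), averaged 1.395 TPM with food intake and 1.303 TPM with no food intake. It was highest in no food intake 1 (2.73 TPM, against 1.64 TPM in no food intake 4). The other unnamed CLOCK matches, TRINITY_DN34732_c1_g2 and TRINITY_DN33323_c1_g7, were highest in no food intake 4 (2.55 and 2.04 TPM). The NPAS2-matched unigene TRINITY_DN28022_c2_g1 (named Clock, 749 bases) had 0.48 to 3.20 TPM with food intake (median 1.09) and 0.39 to 5.70 TPM with no food intake (median 1.84), a difference of -0.31 (SE 0.38). No food intake 4 was the highest of all 12 libraries in 4 of 4 CLOCK-named unigenes. Without that library and food intake 6, all 4 differences lay between -0.05 and 0.36. No food intake 4 also had the most unigenes above 0 (57025) and the highest summed leucocyte markers: 47.6 TPM, in a list that spanned 10.98 to 28.2 TPM with food intake and 11.9 to 47.6 TPM with no food intake, with 3 of 5 symbols found (CD74 and MPX not matched) and none of the 3 at 0. The part of either in the CLOCK values was not tested.

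**Figure D2:**
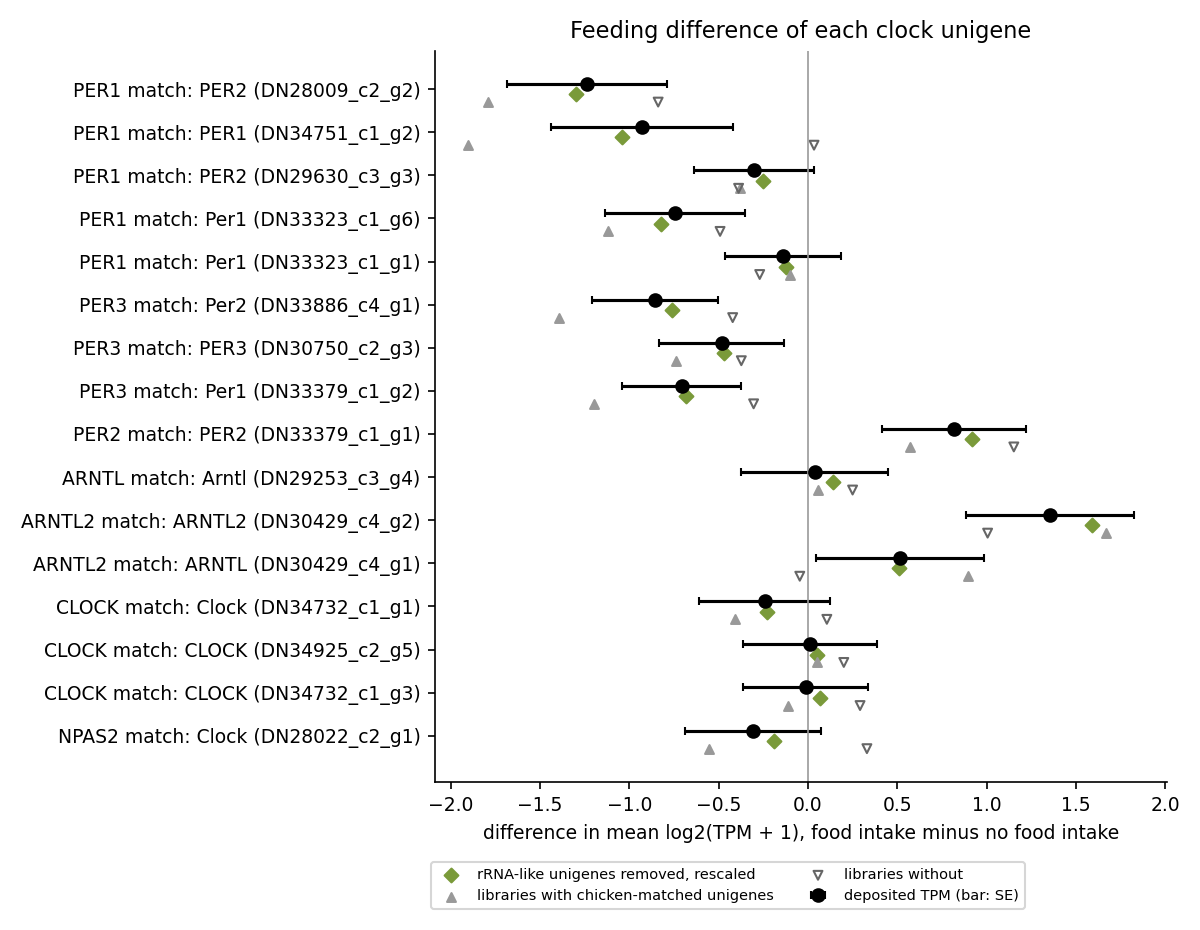
Difference in mean log2(TPM + 1), food intake minus no food intake, for each clock unigene (black, bars are the SE of the fitted difference), after removal of the rRNA-like unigenes (diamonds) and within each library set (triangles). The 8 PER1 and PER3 matches lie left of 0 between -1.24 and -0.14, and the PER2 match and ARNTL2 lie right of it at 0.82 and 1.35.

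All 16 unigenes had overlapping feeding groups; over all tested unigenes 0.167% did not overlap. Of the 16, 11 passed the filter on low values and entered the limma fit. That fit called 0 of these 11 at adjusted p under 0.05, beside 0.00% of the 40142 unigenes in each direction; 2.48% of the 40142 were higher and 3.79% lower at an unadjusted p below 0.05. Since the members were proposed from this contrast, nothing is read from their count.

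The repressor to activator ratio, the summed PER unigenes over the summed ARNTL, ARNTL2 and CLOCK unigenes, was lower on average with food intake. Since its genes were proposed with their feeding difference known, this direction is a description. The log2 ratio of (summed TPM + 1) was -0.49, 1.62, 1.34, 2.39, 0.25 and -0.16 in food intake 1 to 6 and 2.48, 1.43, 2.002, -0.18, 4.43 and 2.64 in no food intake 1 to 6. The PER sum was thus below the activator sum in food intake 1 and 6 and in no food intake 4. The ratio was highest in no food intake 5, where the activators summed to 1.01 TPM and the repressors to 42.5 TPM. The sums add several unigenes per gene, so where the ratio passes 0 depends on the assembly. Libraries are therefore compared only with each other. The means were 0.82 ± 1.13 with food intake and 2.13 ± 1.52 with no food intake, a difference of -1.31. With clock-matched unigenes that lack a name added, the means were 0.41 and 1.80. The ranges overlapped widely, and 5 of 6 food intake libraries lay below the no food intake median.

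Repressors summed to 21.2 ± 16.4 TPM with food intake and 32.3 ± 11.04 TPM with no food intake. Activators summed to 10.01 ± 5.28 TPM with food intake and 8.14 ± 7.20 TPM with no food intake. A ratio within a library does not depend on the rRNA-like share except through the added 1, and after rescaling the difference was -1.35. It was -1.73 within the libraries with chicken-matched unigenes and -1.44 within the others. With PER1 and PER3 matches alone over the activators it was -1.51, and with PER2-named unigenes over ARNTL2 alone it was -2.03. Without no food intake 5 it was -0.85, the smallest of the values that leave out 1 library.

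**Figure D3:**
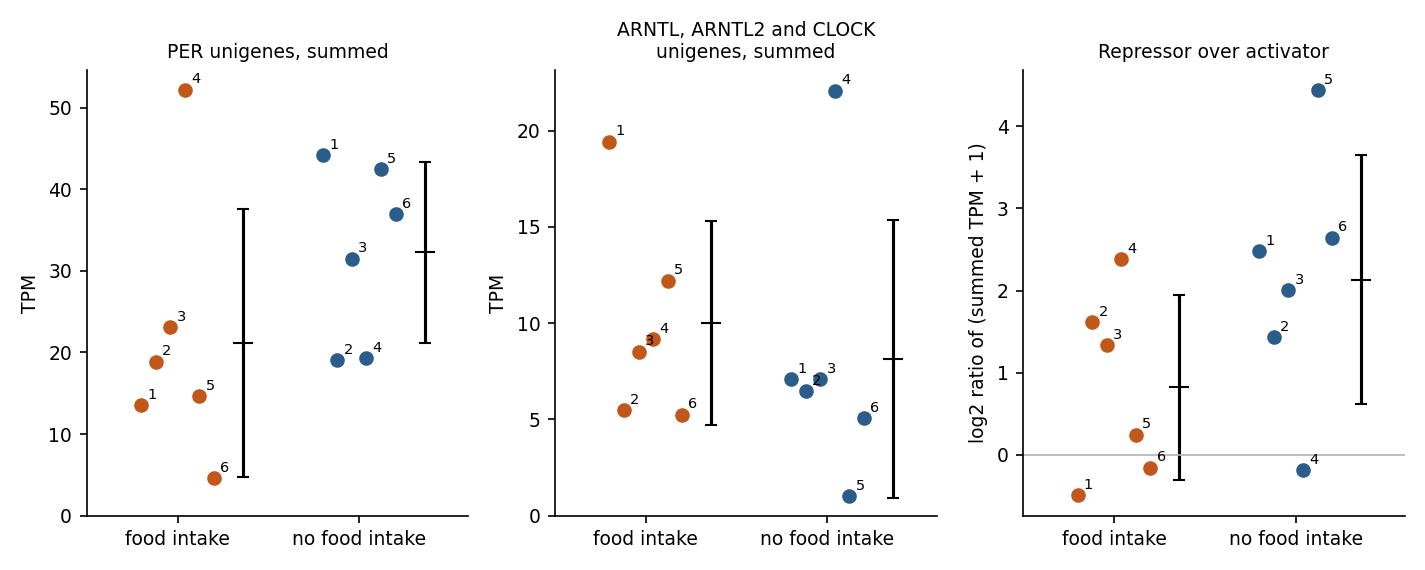
Summed TPM of the 9 PER-named unigenes (left), summed TPM of the 7 ARNTL-, ARNTL2- and CLOCK-named unigenes (middle) and the log2 ratio of the sums, each plus 1 (right), in each library; points carry the replicate number, and bars are mean ± SD with 6 libraries per group. Food intake libraries span -0.49 to 2.39 and no food intake libraries -0.18 to 4.43 in the ratio, with no food intake 4 low and no food intake 5 high in their group.

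The deviations of single fish from their group mean, which do not enter the difference between group means, showed how the members moved together. Over the 12 libraries, 28 of 28 pairs among the 8 PER1 and PER3 matches had a positive correlation of these deviations. Their median r was 0.77 (range 0.46 to 0.97) on log2(TPM + 1) and 0.73 after rescaling. Among all 16 members 68 of 120 pairs were positive, with a median r of 0.14, and 0.01 after rescaling. Unigenes that match the same protein may be pieces of 1 gene, so the pairs are not separate observations. The share over pairs of other unigenes was not computed. The PER2 match followed them weakly, with a median r of 0.25 against the 8, and 0.05 after rescaling. Arntl and each of the 4 CLOCK-named unigenes had negative values against all 8: the median was -0.39 for Arntl and -0.49 to -0.41 for CLOCK, and -0.62 and -0.66 to -0.58 after rescaling. The 2 ARNTL2 matches had mixed signs after rescaling. These r values describe 12 libraries that share a composition and come without a test.

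Correlations of the most abundant PER1-, PER2- and PER3-named unigenes with ARNTL2 within each feeding group ranged from -0.18 to 0.44 (Pearson, n = 6 in each of 6 comparisons). None was distinguishable from 0 by exact permutation over the 720 pairings (smallest two-sided p = 0.433, adjusted p = 0.958; Spearman rho from 0.03 to 0.54, smallest adjusted p = 1). Leaving out the 2 libraries farthest from the median PER level moved r to between -0.85 and 0.45, so no r value was stable. ARNTL2 was listed at 0 in no food intake 2, 4, 5 and 6, and the PER1-named unigene in food intake 1, 5 and 6. Many pairings there give the same r, so these tests could hardly reach the threshold, and no lack of a relation is read from them.

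NR1D1, the nuclear receptor of the second arm and itself a target of CLOCK and ARNTL, was set beside the PER genes fish by fish, a pairing chosen after the values were seen. With no food intake Pearson's r passed the adjusted threshold, while Spearman's rho there, and both measures with food intake, missed it. The adjustment covers 6 comparisons and not the choice of the pairing, so the p-values are given as a description. The 4 NR1D1-named unigenes, 1 of which had an NR1D2-like best match, summed to 6.61, 12.5, 10.3, 32.4, 9.22 and 9.36 TPM in food intake 1 to 6 and to 38.2, 5.81, 18.2, 11.3, 31.0 and 23.2 TPM in no food intake 1 to 6. The PER1 and PER3 matches summed to 8.46, 17.9, 19.8, 43.8, 11.4 and 4.02 TPM in food intake 1 to 6 and to 43.9, 17.9, 30.6, 17.0, 41.5 and 34.9 TPM in no food intake 1 to 6. The 4 highest values of both sums fell in the same fish, food intake 4 and no food intake 1, 5 and 6. After rescaling, food intake 4 and no food intake 1 and 5 were still among the 4 highest of both, but no food intake 3 (41.8 TPM) took the fourth place for PER and food intake 6 (26.1 TPM) that for NR1D1.

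With food intake, Pearson's r of the log2 sums was 0.80 (two-sided exact permutation p = 0.060, adjusted p = 0.12 over 6 comparisons) and Spearman's rho was 0.77 (exact permutation p = 0.10, adjusted p = 0.20). Without the 2 farthest libraries that r was 0.89. After rescaling it was 0.60, and -0.37 without the 2 farthest libraries, so on that scale it rested on those. With no food intake r was 0.94 (exact permutation p = 0.0056, adjusted p = 0.033) and rho 0.94 (exact permutation p = 0.017, adjusted p = 0.10). There r was 0.99 without the 2 farthest libraries and 0.93 after rescaling (exact permutation adjusted p = 0.042). Against Arntl, r was -0.06 with food intake (exact permutation adjusted p = 0.88, and -0.70 after rescaling) and -0.79 with no food intake (exact permutation adjusted p = 0.12). Without the 2 farthest libraries these r values were -0.99 and -0.85, so the one with food intake was not stable. Spearman's rho with food intake was 0.03, and -0.89 after rescaling (exact permutation adjusted p = 0.10). Against the PER2 match, r was 0.64 with food intake (exact permutation adjusted p = 0.24; -0.66 without the 2 farthest libraries) and -0.60 with no food intake (exact permutation adjusted p = 0.25). Whether the groups differ in these r values was not tested.

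**Figure D4:**
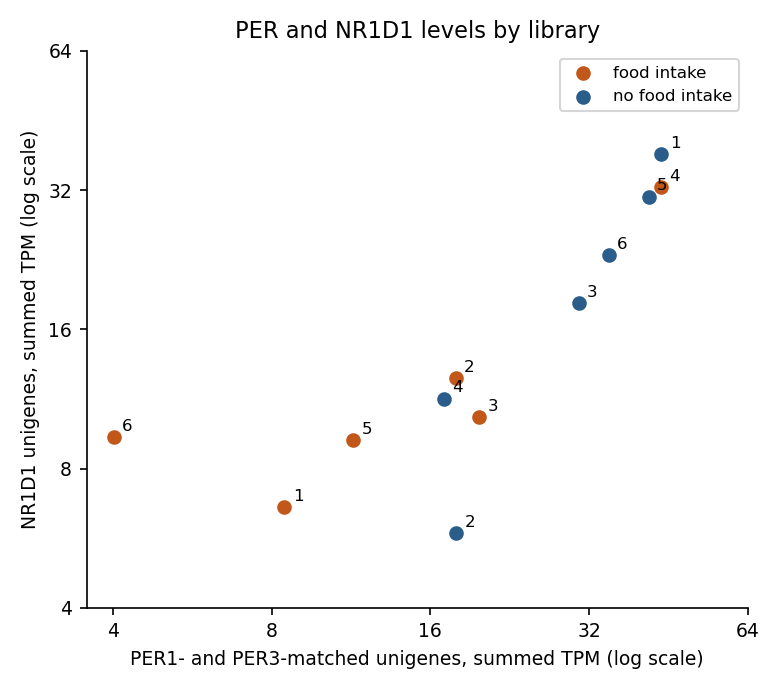
Summed TPM of the 4 NR1D1-named unigenes against summed TPM of the 8 PER1- and PER3-matched unigenes in each library, both on log axes, labelled by replicate number. Food intake 4 and no food intake 1, 5 and 6 lie at the upper right, at 23.2 TPM of NR1D1 or more, while food intake 1, 5 and 6 have the lowest PER sums.

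The set of 7 libraries with chicken-matched mitochondrial unigenes gave a contrast that the choice of genes did not use. With feeding group in the model, 7 of 7 tested PER1 and PER3 matches were lower in those 7 libraries than in the other 5, by -1.06 to -0.50. Over all tested unigenes 59.8% were lower there, with a median of -0.08. The 7 varied together across fish, as the pairwise r values show, and are not separate observations. TRINITY_DN33886_c4_g1, for example, averaged 7.41 TPM there and 10.7 TPM in the others. None of the 11 tested clock unigenes was called (limma, smallest adjusted p = 0.47; 4 of 11 at an unadjusted p below 0.05), whereas 1.96% of all tested unigenes were called and 6.61% had an unadjusted p below 0.05. Fish with food intake made up 3 of those 7 libraries and 3 of the other 5.

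The rest of the clock was read from 4 lists matched by symbol, with 74 tested unigenes in all. limma called 0 of the 74 for feeding (smallest adjusted p = 0.77), beside 0.00% of all tested unigenes. At an unadjusted p below 0.05, 2 were higher and 1 lower, where 2.48% of all were higher and 3.79% lower. Feeding groups overlapped for every unigene of the lists, tested or not, where 0.167% of all tested unigenes did not overlap.

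Of the other core clock genes, 11 of 14 tested unigenes had a lower mean with food intake, with a median of -0.35. Over all tested unigenes 54.0% had a lower mean, with a median of -0.04. None of the 14 had an unadjusted p below 0.05. The 14 carry 7 symbols, and every tested unigene named NR1D1 or NR1D2 was lower over all 12 libraries. Of these, TRINITY_DN26703_c0_g1, TRINITY_DN26703_c0_g4, TRINITY_DN26703_c0_g5 and TRINITY_DN26703_c0_g8 share an assembly component. The 14 are therefore not separate observations. Nr1d1 TRINITY_DN31928_c1_g1, a repressor of Arntl transcription, averaged 2.63 ± 1.41 TPM with food intake and 5.71 ± 4.14 TPM with no food intake (-0.68, SE 0.44; limma adjusted p = 0.83), and all 6 food intake libraries lay below the no food intake median. CRY1 TRINITY_DN34749_c0_g1, a cryptochrome that acts beside the PER proteins, averaged 4.70 ± 1.52 TPM with food intake and 6.31 ± 1.64 TPM with no food intake (-0.38, SE 0.29; limma adjusted p = 0.86). The most abundant CRY1 unigene, TRINITY_DN31507_c0_g2, averaged 12.4 ± 5.199 TPM with food intake and 15.9 ± 9.43 TPM with no food intake. Yet 4 of 6 food intake libraries lay above its no food intake median. Its difference was -0.79 within the libraries with chicken-matched unigenes and 0.54 within the others. The other tested CRY1 unigene, TRINITY_DN31507_c0_g1, stood at 0.08, and at 0.23 after rescaling. A unigene named Nr1d2 with an NR1D1-like best match, TRINITY_DN26703_c0_g8, averaged 0.752 ± 0.393 TPM with food intake and 1.86 ± 2.03 TPM with no food intake, and tipin, which binds the TIMELESS protein, averaged 2.87 ± 1.23 TPM with food intake and 1.78 ± 1.24 TPM with no food intake (0.52). After rescaling, 11 of the 14 still had a lower mean and the list median was -0.24. Over all unigenes 44.3% were lower on that scale, with a median of 0.06. Without food intake 6 the list median was -0.15, also beside 0.06 over all unigenes. It was -0.56 within the libraries with chicken-matched unigenes and -0.09 within the others, beside -0.19 and 0.18 over all tested unigenes. Within those others TRINITY_DN26703_c0_g4 (0.36), TRINITY_DN26703_c0_g5 (0.34) and Nr1d2 TRINITY_DN30404_c2_g1 (0.05) were higher with food intake. The remaining tested NR1D1- and NR1D2-named unigenes were lower there.

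The kinases, ligases and other modifiers of clock proteins had 15 of 19 tested unigenes with a higher mean and a median of 0.14. Over all tested unigenes 46.0% had a higher mean, with a median of -0.04. None of the 19 had an unadjusted p below 0.05. Gsk3b TRINITY_DN29146_c1_g2, a kinase with clock proteins among its substrates, averaged 2.40 ± 2.30 TPM with food intake and 0.608 ± 0.546 TPM with no food intake (0.87, SE 0.41; limma adjusted p = 0.80). HUWE1, a ubiquitin ligase and the most abundant of this list, averaged 13.6 ± 6.09 TPM with food intake and 13.8 ± 4.58 TPM with no food intake (-0.08). csnk2b, the regulatory subunit of casein kinase II, averaged 12.4 ± 6.09 TPM with food intake and 7.20 ± 2.32 TPM with no food intake (0.62), PRKAA1, a catalytic subunit of the energy sensor AMPK, averaged 1.95 ± 0.999 TPM with food intake and 1.03 ± 0.426 TPM with no food intake (0.48), and BTRC, a ubiquitin ligase component whose best match was FBXW11, averaged 0.840 ± 0.430 TPM with food intake and 1.89 ± 1.46 TPM with no food intake (-0.55).

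Clock output genes had 9 of 19 tested unigenes with a higher mean, where 46.0% of all tested unigenes did, and a median of -0.01. That median was -0.17 within the libraries with chicken-matched unigenes and 0.41 within the others, beside -0.19 and 0.18 over all tested unigenes. NAMPT TRINITY_DN26534_c0_g2, the enzyme that makes the NAD precursor NMN and a clock target in mammals, averaged 3.60 ± 2.83 TPM with food intake and 1.36 ± 0.783 TPM with no food intake (0.83, SE 0.36; limma adjusted p = 0.77), and was the 1 list member at unadjusted p under 0.05. HLF TRINITY_DN35180_c1_g1 averaged 5.30 ± 4.09 TPM with food intake and 2.43 ± 1.02 TPM with no food intake (0.61). The other tested HLF-named unigenes ranged from -0.50 to 0.12. PPARA, a fatty acid receptor, averaged 5.12 ± 2.40 TPM with food intake and 3.40 ± 2.06 TPM with no food intake (0.47). PPARGC1A TRINITY_DN7594_c0_g1 (233 bases), named so but with an unnamed macaque protein as best match, averaged 10.7 ± 4.76 TPM with food intake and 8.15 ± 4.31 TPM with no food intake (0.39). The tested unigenes that do match PPARGC1A or PPARGC1B all had a lower mean with food intake over the 12 libraries, by -0.42 to -0.04. That direction depended on the libraries. They ranged from -1.27 to -0.67 within the libraries with chicken-matched unigenes and from 0.58 to 0.82 within the others. After rescaling they ranged from -0.30 to 0.11. The most abundant output unigene, HLF TRINITY_DN27151_c0_g1, a PAR bZIP factor, averaged 29.6 ± 10.97 TPM with food intake and 33.1 ± 14.3 TPM with no food intake.

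In the list drawn up for induction of Per transcription, 7 of 22 tested unigenes had a higher mean, where 46.0% of all tested unigenes did. The list median was -0.27, beside -0.04 over all. Members were taken by symbol, among them Sik1, sgk1, FKBP5 and TSC22D3, and whether each induces Per was not tested. The median was 0.04 without no food intake 4 and -0.06 without food intake 1. At unadjusted p below 0.05, 1 was higher and 1 lower. INSR TRINITY_DN34141_c0_g1, an insulin receptor, averaged 1.99 ± 1.19 TPM with food intake and 4.65 ± 1.37 TPM with no food intake (-0.98, SE 0.31; limma adjusted p = 0.77), with 6 of 6 food intake libraries below the no food intake median. nr3c1, the glucocorticoid receptor that in mammals binds the Per1 gene, averaged 5.00 ± 2.06 TPM with food intake and 2.86 ± 1.26 TPM with no food intake (0.63, SE 0.29; limma adjusted p = 0.79), with 6 of 6 above it. JUN TRINITY_DN27561_c1_g4, an immediate early factor, averaged 61.2 ± 68.4 TPM with food intake and 108 ± 89.95 TPM with no food intake (-1.08, SE 0.58). The other tested JUN unigenes ranged from -0.63 to 0.56. CRTC1 TRINITY_DN31053_c4_g1, a coactivator of CREB, averaged 1.64 ± 0.767 TPM with food intake and 3.23 ± 1.51 TPM with no food intake (-0.64). The other tested CRTC1 unigene, TRINITY_DN31053_c4_g3, ran the other way (0.67). JUN TRINITY_DN27561_c1_g4 was highest in food intake 4 (196 TPM) and no food intake 4 (285 TPM) within their groups.

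**Figure D5:**
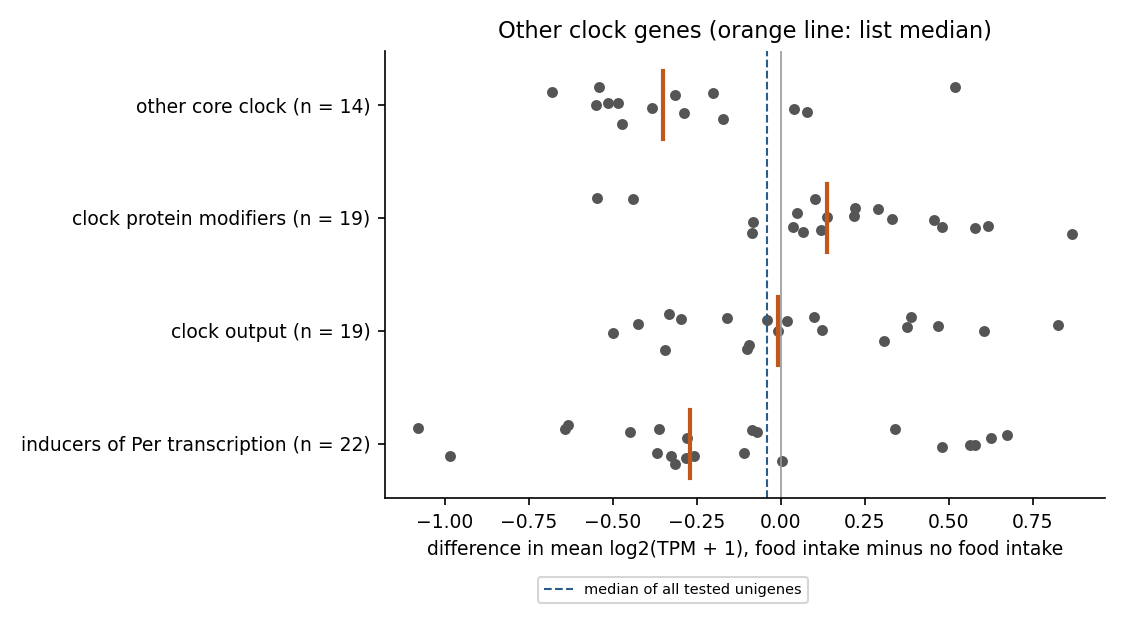
Difference in mean log2(TPM + 1), food intake minus no food intake, for every tested unigene of the 4 lists of other clock genes; the orange line is the list median and the dashed line the median of all tested unigenes, -0.04. The core clock list centres at -0.35 and the modifiers at 0.14, and points of every list fall on both sides of 0.

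The genes whose levels followed each name most closely were sought among 13643 named, tested unigenes, for the most abundant unigene of each name. The measure was Pearson r of log2(TPM + 1) over the 12 libraries. Group means were not removed here, so these r values include the feeding difference with which the genes were proposed. For PER1 the 4 highest were emc7 (r = 0.89), Fhl1 (0.88), NR1D1 (0.88) and tcf7l1a (0.86), and for PER3 they were tcf7l1a (0.93), RNF19A (0.90), etv4 (0.88) and Nelfa (0.88). For the Per2-named, PER3-matched unigene they were GTF2H5 (0.93), KAT8 (0.92), Tgfbr2 (0.91) and lyrm5b (0.90). BAZ2B was among the 2 lowest for PER1 (r = -0.89), for that Per2-named, PER3-matched unigene (-0.84) and for PER3 (-0.84). GBP2 was among the 2 lowest for PER1 (-0.83) and for the same Per2-named unigene (-0.91).

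The activators had other neighbours. For Arntl the highest were ITSN1 (0.91), rnf168 (0.89), Ptcd1 (0.87) and CFLAR (0.86), and the lowest PLXNA1 (-0.82) and Znf507 (-0.79). For ARNTL2 they were Zbed4 (0.85), Fam72a (0.80), ATG5 (0.80) and UNC13B (0.79), with DNASE2B (-0.93) and Rasip1 (-0.89) lowest. For the NPAS2-matched unigene they were ARRDC3 (0.88), kdr (0.88), USP32 (0.87) and esyt3 (0.85), with PLXNB1 (-0.88) and eef1as (-0.84) lowest. These are the extremes of many values over 12 libraries, and after rescaling some were looser: emc7 stood at 0.69 and Tgfbr2 at 0.57.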

How the data were processed

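RNA from 12 Coilia nasus stomachs was sequenced, 1 library per fish, 6 per feeding group. The submitters' processing notes name cutadapt and FastQC, and the unigene identifiers are those of a Trinity assembly. Depth, filters and the quantifier: not given in the sources used here. The values the authors deposited were read as TPM, because column totals are near-equal and the smallest values fall with unigene length; the header names no unit.

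Unigenes that reached 1 TPM in 6 libraries (40142) were fitted with limma 3.58.1 and its trend option (R 4.3.3) on log2(TPM + 1). The only term was the feeding group, and p was adjusted over all of these by Benjamini and Hochberg (threshold 0.05). The fit was tested on simulated, independent normal values, with changes added only to unigenes of small spread for their level. It therefore does not show how well changes in the low and variable clock unigenes would be found. Python 3.11.15 and matplotlib 3.10.9 gave the other values. The 7 rRNA-like unigenes had a mean of at least 1000 TPM and tracked the ART2 unigene (an rRNA-antisense reading frame) with r of at least 0.95.

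Every unigene of the 6 names could be described; of each list, the 4 with the smallest unadjusted p and the most abundant were named. The members and lists were chosen with earlier results of these data known. Whether replicate numbers pair fish across groups is not given in the sources used here, and the main fit did not use them. Alternatives were a pseudocount of 0.1, other filters, quantile scaling, rescaling, no trend, a replicate block, library set as a term or alone, and each library left out. Added after seeing the data were the ratios by best match, without CLOCK, with unnamed unigenes and on rescaled values, the pairings of summed PER1 and PER3 matches, and values without both food intake 6 and library 4 of the no food intake fish. No nucleotide sequence was used here.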

Additional observations from a re-analysis of the deposited data

Results flagged for a closer look

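Within each feeding group of 6, a library was singled out where its gap to the next took more of the group's range than Dixon's critical value allows. Of 72 groups checked (36 items in 2 groups), 11 had such a library, where chance gives about 1 in 20 for independent, normally distributed values. These are right-skewed TPM of unigenes that partly move together, so that rate is no measure for the 11, all of which are high values and 9 of which lie in 2 libraries. In food intake 4, the unigene PER1 TRINITY_DN34751_c1_g2 stood at 7.81 TPM (0 to 2.06 TPM in the other 5), Per1 TRINITY_DN33323_c1_g6 at 3.43 TPM (0.07 to 1.01 TPM), PER2 TRINITY_DN28009_c2_g2 at 7.79 TPM (0.22 to 1.35 TPM) and JUN TRINITY_DN27561_c1_g4 at 196.2 TPM (11.8 to 58.7 TPM). In no food intake 4, Arntl TRINITY_DN29253_c3_g4 stood at 6.88 TPM (0.33 to 2.54 TPM in the other 5), Clock TRINITY_DN34732_c1_g1 at 4.11 TPM (0.07 to 0.93 TPM), CLOCK TRINITY_DN34925_c2_g5 at 2.79 TPM (0.10 to 0.67 TPM), CLOCK TRINITY_DN34732_c1_g3 at 2.60 TPM (0 to 0.42 TPM) and the same JUN unigene at 284.7 TPM (45.3 to 110.8 TPM). HLF TRINITY_DN35180_c1_g1 was high in no food intake 3 at 4.40 TPM (1.66 to 2.43 TPM in the other 5), and nr3c1 TRINITY_DN28287_c2_g1 was high in no food intake 1 at 5.28 TPM (1.84 to 3.06 TPM).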

How the results depend on the processing

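The feeding contrast called 0 unigenes with limma; it called 2 with quantile normalization, 1 after rescaling without the rRNA-like unigenes and 0 to 1 when 1 library was left out (1 without no food intake 4). No clock unigene of the 4 lists was called under any alternative run. Rescaling moved the median of all tested unigenes from -0.04 to 0.06 and the unadjusted split from 997 higher and 1521 lower to 2278 higher and 1013 lower. The repressor to activator difference stayed negative under all alternatives, from -2.03 to -0.85. Its genes were proposed with their feeding difference known, so the constant sign is a description and no separate evidence. Of the 16 members, 11 had a lower mean with food intake, where 54.0% of all tested unigenes did, and 8 to 13 under the alternatives. Filter and trend do not enter a member's difference. Of the member differences under alternatives, 3 moved by more than the spread between fish, all with a pseudocount of 0.1: TRINITY_DN34751_c1_g2 to -2.34, TRINITY_DN33323_c1_g6 to -1.73 and ARNTL2 to 2.93. The library set contrast called 787 unigenes, and 607 to 972 under its alternatives. Same-numbered fish correlated at -0.10 to 0.11 (1 of 6 over 0.1), and 0 of 6 food intake libraries correlated best with their own number. Such weak correlations cannot exclude a pairing. The replicate block serves only as a check, and it called 0 unigenes. The precision of values near 1 TPM is limited by a depth that the table does not record.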

Other observations

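Several unigenes without a deposited name matched the same clock proteins, and these were picked out after the values were seen. TRINITY_DN30429_c7_g1 (306 bases, ARNTL match) averaged 1.92 ± 1.94 TPM with food intake and 0.313 ± 0.620 TPM with no food intake, a difference of 0.99; it was above 0 in food intake 1 to 5 and in no food intake 4 and 6. Both unnamed PER1 matches had a lower mean with food intake: TRINITY_DN29329_c1_g8 averaged 1.44 ± 0.928 TPM with food intake and 2.43 ± 1.41 TPM with no food intake, and TRINITY_DN19370_c0_g1 averaged 1.13 ± 1.91 TPM with food intake and 2.27 ± 2.19 TPM with no food intake. The unnamed ARNTL2 match TRINITY_DN26705_c0_g12 averaged 1.09 ± 1.20 TPM with food intake and 1.12 ± 1.10 TPM with no food intake. With all 7 such unigenes added to the sums, the repressor to activator difference was -1.39.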
